A study of Mus musculus with 5 samples.

Results

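Skin staged as resting was described from 3 wild-type mice, 1 expression array per mouse. They were among the 5 mice of a study on the *Clock* gene and the hair growth cycle. The 3 mice were female littermates of *Clock* mutant mice, were sampled at postnatal day 23 (P23), and were staged by the authors as telogen, the resting phase of the follicle. In the authors' separate time course of wild-type skin, however, P23 was classed as early anagen, the start of growth. Their tissue sections of P23 wild-type skin were described as anagen I. The 3 mice used here carried no engineered allele and received no treatment. Their strain and the hour of collection were not given in the labels. The 2 *Clock* mutant arrays were not used here, so nothing below compares genotypes. Total RNA of whole dorsal skin was hybridized to Affymetrix arrays. Each value is a MAS5 intensity, a linear signal that the authors scaled so that the trimmed mean was 500.0 on every array. Of 45037 probe sets that were no controls, 34945 named exactly 1 gene. The brightest probe set of each gene was kept, which left 18193 genes, and every gene then had 1 rank by mean log2 intensity and 1 percentile among these genes. A probe set binds its target with its own strength. A rank therefore orders signals, and is not a count of molecules.

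Dorsal skin is an organ of layers. The epidermis renews from a basal layer, whose daughters move up, switch keratins and harden into cornified cells. Follicles at telogen are short and hold stem cells, a resting germ and a club hair, with the sebaceous gland attached, while the shaft and inner root sheath are built only during growth. Below lie the collagen-rich dermis, a layer of fat and, in the mouse, a thin sheet of striated muscle that moves the skin.

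The brightest genes of wild-type telogen skin included genes known from epidermis, dermis, fat and muscle. Among the top 30, 9 were on a list of striated muscle genes, 5 on a list of suprabasal and cornified keratinocyte genes, 5 on a list of dermal fibroblast genes and 2 on a list of white adipocyte genes. Another 6 encoded ribosomal proteins, and 2, *Tpt1* and *Eef1a1*, were on the housekeeping list. *Gsn*, which encodes the actin-severing protein gelsolin, was on no list.

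*Sparc*, which encodes a collagen-binding matrix protein, ranked first, with intensities of 25779, 25769 and 29617 in replicates 1, 2 and 3 (27055 ± 2218, SD, n = 3). *Krt10*, the main keratin that epidermal cells gain when they leave the basal layer, ranked second with 27141, 25182 and 28248 (26857 ± 1553). *Krt10* was the brightest gene of replicate 1 and *Sparc* that of the other mice, so their order was not fixed. *Col3a1*, a fibrillar collagen, followed with 23162, 24551 and 25800 (24504 ± 1320). Rank 4 was held by *Myh4*, the myosin of the fastest muscle fibres, at 23673, 23267 and 24931 (23957 ± 868). The calcium pump gene *Atp2a1* of fast muscle was close behind at 22965, 22516 and 24931. Of the 29 neighbouring pairs in the top 30, only 5 stood in the same order on all 3 arrays. Within this set, single ranks mean little. The set itself was more stable, since all 30 were among the 100 brightest of every array, and 91 genes were among the 100 brightest of all 3 arrays taken singly.

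**Figure D1:**
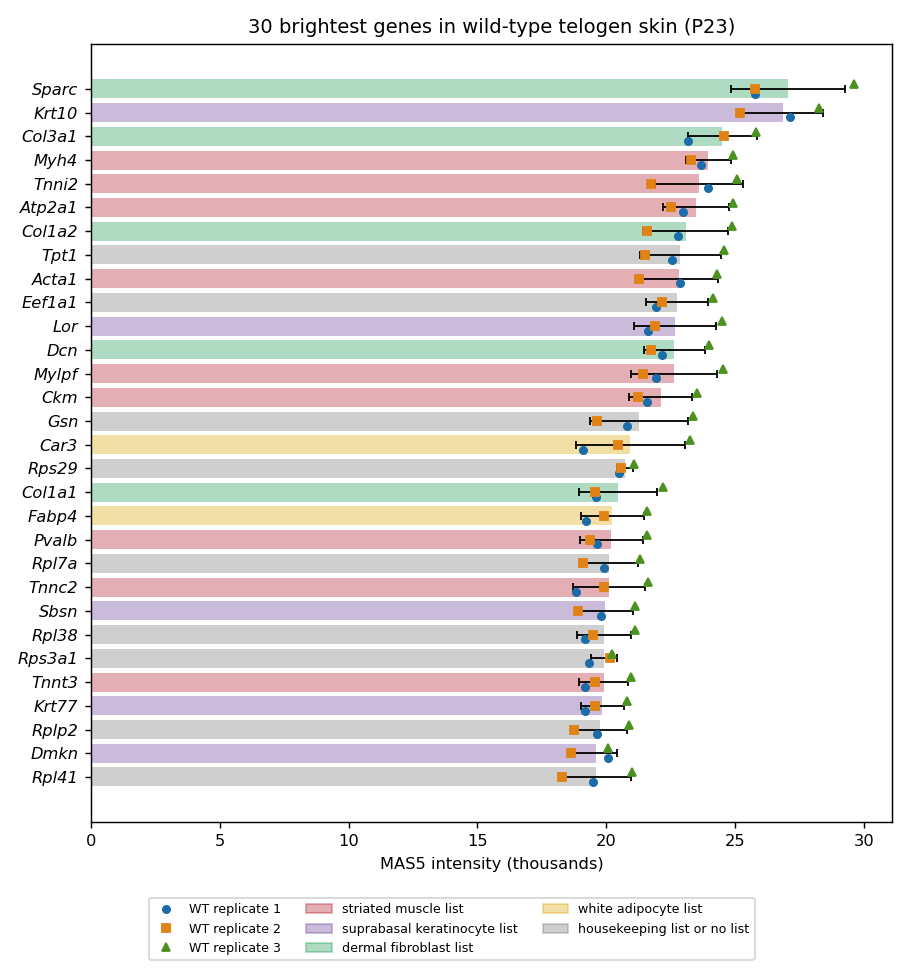
MAS5 intensity (in units of 1000, linear axis from 0) of the 30 brightest genes in wild-type P23 skin. Bars are means and whiskers the SD of 3 arrays, symbols are the single mice and bar colours the gene lists, and replicate 3 is the highest symbol for 29 of the 30 genes.

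Signal was spread over many genes. The 100 brightest genes held 9.49%, 9.49% and 10.04% of the summed intensity of all genes in replicates 1, 2 and 3 (9.67% ± 0.316), and 111 genes lay within 1 log2 unit of the brightest. Ribosomal proteins made up 30 of the 100. A further 33 were on a cell type list, 14 of them striated muscle, 8 suprabasal keratinocyte, 5 fibroblast and 3 adipocyte. Of the 43 ribosomal protein genes with a value, a group set by symbol after values were seen, 35 lay in the top 10% of all genes. Among the brightest 100, 24 values came from probe sets whose names mark possible binding to more than 1 transcript, against 1487 of all 18193 genes.

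The stretch just before the start of transcription was compared among these genes, because the promoters of strongly expressed tissue genes are often described by their TATA box. RefSeq promoter windows of the GRCm38.p6 assembly were available for 14452 genes. The letters TATAAA on the gene's strand, starting 45 to 16 bases before the start, were found in 8.91% of windows of the brightest 100 genes (9 of 101 windows, 78 genes), 3.20% of windows of ranks 101 to 1000, 1.14% from there down to the filter (the 40th percentile of genes), 3.89% below it, and 2.32% of all windows. The share thus fell with rank among genes past the filter, but was higher again below it. The 9 genes were *Krt10*, *Myh4*, *Lor*, *Vim*, *Anxa1*, *Postn*, *Myh1*, *Krtdap* and *Fam25c*. No window of the bright ribosomal protein genes held these letters there (0 of 32). The 100 bases before the start are shown for 3 of the tissue genes and for 2 genes of the translation machinery, *Eef1a1* and *Rplp0*, with TATAAA in capitals where it occurred, each read 5′ to 3′ on the gene's strand.
Krt10: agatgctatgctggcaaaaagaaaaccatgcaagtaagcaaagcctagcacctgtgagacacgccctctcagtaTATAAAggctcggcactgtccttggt
Lor: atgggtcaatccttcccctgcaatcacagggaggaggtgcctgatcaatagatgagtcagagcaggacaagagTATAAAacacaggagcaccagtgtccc
Myh4: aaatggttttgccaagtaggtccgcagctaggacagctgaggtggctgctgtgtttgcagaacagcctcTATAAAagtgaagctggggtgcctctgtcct
Eef1a1: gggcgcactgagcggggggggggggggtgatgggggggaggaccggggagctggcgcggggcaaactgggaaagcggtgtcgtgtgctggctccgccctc
Rplp0: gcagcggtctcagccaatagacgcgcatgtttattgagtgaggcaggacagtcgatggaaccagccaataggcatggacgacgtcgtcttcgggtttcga
These lie at chr11:99389365-99389464 (minus strand) for *Krt10*, chr3:92083143-92083242 (minus) for *Lor*, chr11:67237712-67237811 (plus) for *Myh4*, chr9:78481725-78481824 (minus) for *Eef1a1* and chr5:115559367-115559466 (plus) for *Rplp0*. *Rplp0*, which encodes a stalk protein of the ribosome, ranked 32 with intensities of 18956, 20050 and 19617. The first T lies 26, 27 and 31 bases before the start of *Krt10*, *Lor* and *Myh4*. Dim genes held them too, since they were in 57.1% of windows of the growing-hair genes (8 of 14). On the suprabasal list they were in 6 of 20 windows and on the fibroblast list in 0 of 13. Searched over the whole 300-base window on both strands, TATAAA was in 25.7% of windows of the brightest 100 and 9.77% of all. A match describes letters, and does not show that a factor binds there.

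Within the epidermis, genes of the upper layers stood near the top of the scale. Of 21 suprabasal and cornified keratinocyte genes with a value, 17 lay in the top 10% of all genes, and their median percentile was 98.98. By construction the median over all genes is close to 50. *Lor*, which encodes loricrin, the main protein of the cornified envelope, had intensities of 21619, 21905 and 24488. *Sbsn*, *Krt77* and *Dmkn*, all made by differentiating keratinocytes, had means of 19928, 19848 and 19579. *Krt1*, the usual partner of *Krt10*, was lower and more variable at 11201, 8914 and 9656. *Sfn*, *Casp14* and *Tgm3* were at percentiles 83.2, 76.1 and 65.3. Only *Sprr1b*, an envelope precursor gene known from stressed or wounded epithelium, was below the 40th percentile of genes, and its intensities of 24.96, 16.79 and 44.30 put it at percentile 19.6. In the basal layer, *Krt5* had 13525, 11521 and 13190 and its partner *Krt14* 11323, 9794 and 10982. Both keratins fell lowest in replicate 2. *Trp63*, the master regulator of stratified epithelium, had 4266, 4839 and 4238. All 11 basal genes passed the filter used below, the 40th percentile of genes, and their median percentile was 97.0. *Postn*, the brightest of them at 14364, 17428 and 15870, is also made by dermal cells.

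The lists of resting and growing follicle genes differed in signal, at the single age measured. Of 20 genes of the resting follicle epithelium, 19 passed the filter and 8 lay in the top 10%, with a median percentile of 79.5. *Krt79*, a keratin of the duct region, had 12118, 11132 and 11800. The bulge stem cell marker *Cd34*, which fibroblasts and vessels also make, had 8771, 8312 and 8718. *Lgr5*, a Wnt pathway receptor of the lower resting follicle, had 566, 686 and 608, and *Lhx2*, a transcription factor of bulge cells, 1258, 986 and 960. Genes of the growing shaft and root sheath stood apart from these. Only 3 of 19 passed the filter, *Gata3*, *Krt81* and *Tchh*, and the list's median percentile was 34.3. *Gata3*, the single member in the top 10% with 3152, 2715 and 3031, is also active in epidermis and in lymphocytes. Most sebaceous gland genes were bright, with 10 of 13 in the top 10%. The others were *Cyp2g1* and *Elovl3*, at percentiles 87.2 and 81.1, and *Mc5r*, below the filter at 38.0. *Awat2*, *Dgat2l6* and *Soat1* of the same list had no value here. How much of the signal of these lipid genes came from the gland was not tested. *Scd1*, the desaturase that makes monounsaturated fatty acids, had 18189, 18214 and 19737, although fat makes it as well. Dermal papilla genes were among the dimmest of the resident cell lists, with 6 of 14 past the filter and none in the top 10%. *Sox2* had 89.4, 86.7 and 96.7 and *Corin* 42.6, 20.5 and 29.3, while the broader *Bmp4* had 1379, 1185 and 1287.

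**Figure D2:**
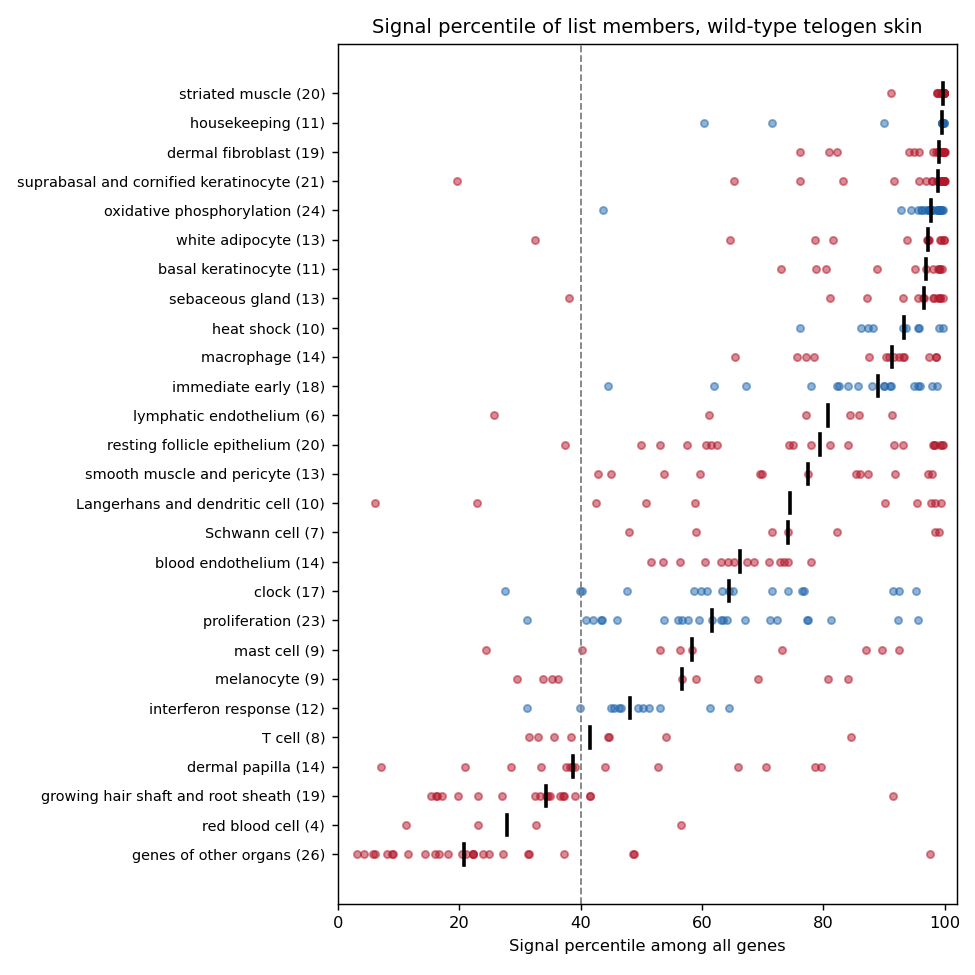
Signal percentile among 18193 genes (horizontal axis) for every measured member of each list (number measured in brackets, red for cell lists and blue for programme lists), with the list median as a black bar and the 40th percentile dashed. Striated muscle is highest at 99.7 and genes of other organs lowest at 20.8.

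Dermis, fat and muscle gave bright lists as well. All 19 fibroblast genes passed the filter and 16 lay in the top 10%. Besides the collagens, *Dcn*, which encodes the collagen-binding proteoglycan decorin, had 22174, 21750 and 23967, and *Pdgfra*, the receptor that marks fibroblasts, 4604, 5129 and 4913. Among fat genes, *Fabp4*, a fatty acid carrier, had 19197, 19905 and 21589, and *Adipoq*, the hormone gene made almost only by adipocytes, 12412, 12273 and 13656. *Lep*, the leptin gene, was the only one of 13 below the filter, at 45.4, 130.4 and 93.5. All 20 striated muscle genes lay in the top 10%, the only list fully inside it, with a median percentile of 99.7.

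Several of the muscle genes belong to fast fibres. Besides *Myh4* there were *Myh1*, a myosin of fast fibres, at 14710, 16691 and 15618, and *Myh2*, that of fast oxidative fibres, at 10849, 8103 and 9821. *Pvalb*, a calcium buffer of fast fibres, had 19635, 19362 and 21580. *Myh7* and *Tnni1*, slow fibre genes added after their values were seen, had 10.7, 16.7 and 15.5, and 56.7, 35.5 and 59.5. Their percentiles were 12.7 and 27.1, and since each probe set binds with its own strength, the fibre types were not compared in amount. Of 24 oxidative phosphorylation genes, 23 lay in the top 10%.

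Vessels, nerves and immune cells gave signals from dim to bright. All 14 blood endothelial genes passed the filter and none was in the top 10%, with *Pecam1*, an adhesion molecule of endothelium, at 1086, 944 and 1057. The lymphatic receptor gene *Lyve1*, shared with macrophages, had 2644, 3088 and 2923, whereas *Prox1*, the transcription factor that defines lymphatic fate, had 39.8, 50.7 and 40.8. Macrophages were the brightest immune list, with 9 of 14 genes in the top 10%. *Csf1r*, their growth factor receptor, had 6353, 5918 and 6762, and *Mrc1*, a scavenger receptor, 3796, 3219 and 3431. *Lyz1* and *Lyz2* share most of their sequence and cannot be separated with certainty. *Cd74*, the chaperone of MHC class II, had 12604, 14028 and 15625, with *Cd207*, the Langerhans cell lectin, at 499, 510 and 551. Of the mast cell genes, the protease gene *Cpa3* had 3234, 2967 and 3454. T cell genes were dim, 4 of 8 past the filter, with *Cd3g* at 419, 360 and 457. Melanocyte genes were divided, *Dct* at 1522, 1351 and 1395 but the pigment enzyme gene *Tyr* at 128, 107 and 110, below the filter. Of the Schwann cell genes, 7 of 7 passed, led by the myelin gene *Pmp22*, which fibroblasts also make, at 11709, 10772 and 11512.

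Genes of organs other than skin gave a view of the bottom of the scale. Of 26 genes of liver, pancreas, heart, lung, kidney, brain, testis and pituitary, 23 lay below the filter, with a median percentile of 20.8. *Myh6*, the heart myosin, had 4.68, 2.62 and 4.50. The 3 above it were *Cyp2e1*, a liver cytochrome that other tissues also make, at 6747, 6706 and 6372, *Alb* at 239, 333 and 360, and *Scgb1a1* at 299, 282 and 327. Values below the filter, an intensity of 164, thus include those of genes not known from skin. *Alb* and *Scgb1a1*, on the same list, lay above it. Passing the filter therefore does not by itself show expression in skin. No detection call was used, and absence of a transcript was not tested.

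Programmes of the cell followed. Of 23 proliferation genes, 22 passed the filter, with a median percentile of 61.7. *Mki67*, present in dividing cells, had 1337, 1161 and 1119, and *Pcna*, which also serves DNA repair, 5346, 4401 and 4593. Clock genes had a median percentile of 64.5. The repressor gene *Per1* had 2620, 3170 and 3055, *Arntl*, which encodes BMAL1, 600, 714 and 621, *Clock* 1201, 1111 and 1162, and the output gene *Dbp* 815, 462 and 492. The levels of *Per1*, *Arntl* and *Dbp* turn with the hour in most tissues, and the hour of collection was not known. Of 12 interferon response genes, 10 passed the filter and none lay in the top 10%, and their median percentile of 48.1 was near that of all genes. Immediate early genes were higher, 8 of 18 in the top 10%, led by *Klf4*, an epidermal barrier factor, at 8933, 10262 and 9278.

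The 3 mice resembled each other closely where signal was high. Across genes, which are not independent replicates, Pearson correlations of log2 intensity were 0.969, 0.965 and 0.970 for the pairs of replicates 1 and 2, 1 and 3, and 2 and 3. They were 0.988, 0.988 and 0.991 over the 10916 genes past the filter. The SD of log2 intensity over the 3 mice had a median of 1.06 in the dimmest 10% of genes and fell from group to group, to 0.17 in the fifth group of 10% and 0.074 in the brightest. Past the filter the median SD was 0.103, which is a factor of 1.07, and among the brightest 100 genes it was 0.076. With 1 array per mouse, differences between animals and between hybridizations cannot be told apart.

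**Figure D3:**
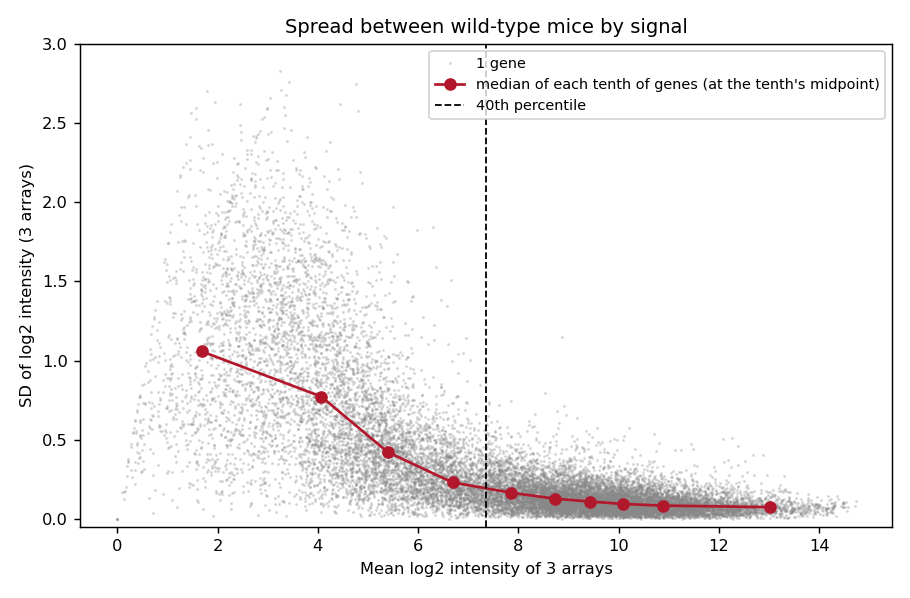
SD of log2 intensity over the 3 wild-type mice (vertical axis) against mean log2 intensity (horizontal axis), 1 grey point per gene. Red points are medians of each 10% of genes and fall from 1.06 to 0.074, and the dashed line is the 40th percentile filter.

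Few genes past the filter varied widely. The highest and lowest mouse differed by more than 2-fold in 41 of 10916 genes (0.376%), and in 6 of these the mean was at or above the 60th percentile. With 32 added to every intensity before the logarithm, 17 genes were over that limit. Without replicate 1, 2 or 3 in turn the counts were 11, 21 and 16, over 2 mice each. Of the 41, replicate 3 stood apart as the high one in 14 and replicate 1 in 10. List members among them numbered 4, named after their values were seen, *Mcm2*, *Alas2*, *Crabp1* and *Flt3*. The ribosomal protein genes *Rpl39*, at 196, 471 and 540, and *Rps27*, at 252, 214 and 480, were among the 41 too.

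Among genes at or above the 60th percentile the widest spread was that of *Lhpp*, which encodes a phosphatase, at 894, 369 and 572 (SD of log2 0.64). It stood close to that cut, at percentile 60.9. *Irf4*, a transcription factor of lymphocytes and dendritic cells, followed with 1611, 754 and 1341 (0.57). In both, replicate 2 was the low mouse. *Bcar1* had 502, 1011 and 539 (0.56), highest in replicate 2, but its second probe set had 592, 465 and 540, lowest in that mouse. *Hmox1*, the heme-degrading enzyme induced by oxidative stress, had 515, 658 and 1042, highest in replicate 3. The immediate early genes *Egr1* and *Fos*, which rise within minutes of a stimulus, had the same order of mice, *Egr1* at 5517, 3317 and 6520 and *Fos* at 3991, 3178 and 6293. Both were lowest in replicate 2 and highest in replicate 3, 1.97-fold and 1.98-fold apart. Over the 18 genes of that list, replicate 2 was lowest in 11, against 34.3% of all genes. Replicate 3 was highest in 10, against 38.8% of all genes. In the brightest 10% of genes, which holds 8 of the 18, that share was 45.3%. At the other end, *Heca* had 4950, 4943 and 4942, and *Cpe*, a carboxypeptidase that trims hormones, 6165, 6180 and 6155. None of these ranges is a test, and the extremes were picked among the 7277 genes at or above the 60th percentile.

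Another probe set of the same gene gave a second reading of the same RNA. For 4408 genes with a second probe set past the filter, the same mouse was highest at both in 43.5%. Since 1 of 3 mice must be the highest, part of this agreement needs no shared difference. The share was 37.1% where the range at the first was at most 0.1 log2 units and 52.8% where it was above 0.7 (28 of 53 genes). For *Mcm2* the second probe set had 483, 351 and 348 against 801, 483 and 398, replicate 1 highest in both. For *Dbp* it had 645, 404 and 486 against 815, 462 and 492, again replicate 1 highest and replicate 2 lowest. *Sh3d19* was different. Its first probe set had 904, 880 and 1673, but the second 681, 637 and 655, with a range of only 0.10 log2 units.

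Lists were then followed mouse by mouse, as the median over members of each mouse's log2 intensity minus the mean of the 3. In whole skin, fewer cells of a type and less RNA per cell cannot be told apart. Over all genes, replicates 1, 2 and 3 were the highest mouse in 32.4%, 28.8% and 38.8%. Replicate 3 was the highest in 92 of the brightest 100 genes, with medians of -0.03, -0.04 and 0.08. When the 3 arrays were given one common distribution (quantile normalization), these medians were 0.00 within rounding. Lists of very bright genes moved with this scale. Striated muscle was highest in replicate 3 in 18 of 20 genes with a median of 0.09, and in 6 of 20 with 0.01 after quantile normalization. Ribosomal proteins were highest there in 34 of 43 genes, and in 10 after it. Oxidative phosphorylation genes kept replicate 3 highest in 20 of 24 genes after it, against 22 before, with medians of 0.05 and 0.09.

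Among fat genes, replicate 1 was lowest in 10 of 13 (38.5% of all genes) and replicate 3 highest in 10 (38.8%). The medians were -0.13, 0.00 and 0.14. After quantile normalization replicate 1 was lowest in 11, and the medians were -0.09, 0.02 and 0.07. *Pnpla2*, the fat triglyceride lipase, had 5516, 6379 and 6937, *Lipe*, the hormone-sensitive lipase, 1138, 1283 and 1438, and *Pparg*, the regulator of fat cell identity, 570, 714 and 754. All of these were lowest in replicate 1, but *Thrsp*, a lipogenic gene, was highest in replicate 1 at 6709, 5880 and 6415. *Adipoq* was lowest in replicate 2. Second probe sets of the fat genes were divided. Replicate 1 was lowest for *Car3* (19851, 20763 and 20719) and *Lpl* (5186, 5468 and 5788). It was highest for *Slc2a4* (1320, 1242 and 969), *Cd36* (5423, 4484 and 5399) and *Thrsp* (2865, 2569 and 2432). *Fabp4* was lowest in replicate 3 there (5310, 5699 and 3870).

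Replicate 1 was the high mouse for both growing-hair and proliferation genes. Of 19 growing-hair genes, 14 were highest in replicate 1 (32.4% of all genes), with a median of 0.60. That median lay between 0.33 with 32 added to every intensity and 0.76 after quantile normalization, and was 0.09 over the 3 members past the filter. Each of the root sheath keratins *Krt25*, *Krt27* and *Krt71* showed it, at 283, 34.3 and 56.0, at 273, 70.3 and 88.6, and at 311, 75.5 and 82.6. The shaft gene *Krtap8-1* had 337, 56.9 and 53.1. *Tchh*, the trichohyalin gene of root sheath and medulla, had 280, 147 and 155. The mice other than replicate 1 were below the filter for all 5, where SDs are wide. Over all genes in the fourth group of 10% by signal, counted from the dimmest, which holds *Krt25*, *Krt27*, *Krt71* and *Krtap8-1*, replicate 1 had a median of -0.04. Of the shaft keratins, *Krt31*, at 104, 94.6 and 93.9, was highest in replicate 1 by a small margin only. *Krt81*, at 162, 184 and 216, was highest in replicate 3. Of the 19 genes, 2 were highest in replicate 2 and 3 in replicate 3.

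**Figure D4:**
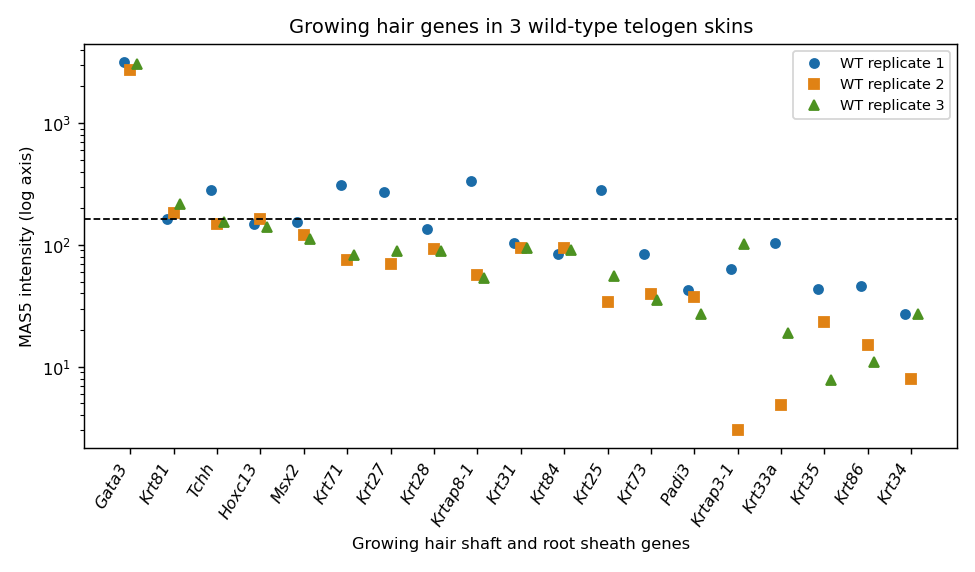
MAS5 intensity (log axis) of 19 growing-hair genes in the 3 wild-type mice, ordered by mean log2 intensity, with the filter intensity dashed. Replicate 1 lies highest for 14 genes, with *Tchh*, *Krt71*, *Krt27*, *Krtap8-1* and *Krt25* above the line in that mouse alone.

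Proliferation genes were highest in replicate 1 in 19 of 23 (32.4% of all genes) and lowest there in 0 (38.5%). Their medians were 0.15, -0.05 and -0.10, and the counts for replicate 1 were the same after quantile normalization. The widest was *Mcm2*, a subunit of the replicative helicase. Others were *Mcm5*, of the same helicase, at 602, 468 and 374, *Birc5*, a protein of the dividing spindle, at 581, 401 and 414, and *Mcm6* at 1099, 949 and 872. The differences were small for *Top2a*, 1502, 1465 and 1426, which untangles DNA. *Plk1*, *Bub1*, *Aurkb* and *Kif11*, all of mitosis, were the 4 members for which another mouse was highest. *Kif11* was nearly level in replicates 1 and 2, at 220, 222 and 195, and its second probe set had 252, 188 and 200. Other mitosis genes were highest in replicate 1, such as *Cdc20* at 1039, 861 and 871 and *Bub1b* at 461, 388 and 368.

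*Alas2*, the heme synthesis gene of red cell precursors, was the one member of its list past the filter, at 1122, 381 and 238, while *Slc4a1*, another red cell gene, had 49.9, 31.2 and 27.5. Of the 4 measured members of that list, these 2 were highest in replicate 1 and the other 2 in replicate 3. Interferon genes were lowest in replicate 1 in 9 of 12 (38.5% of all genes), with a median of -0.12. Among them was *Oasl2* at 207, 324 and 284. *Rsad2* of the same list was highest in that mouse at 527, 320 and 352. T cell genes were highest in replicate 3 in 7 of 8 (38.8% of all genes), with a median of 0.17 (0.09 to 0.19 over the alternatives). *Cd3d* had 235, 207 and 265. Below the filter lay 4 of the 8, all in the fourth group of 10% by signal. In that group, replicate 3 was highest in 40.8% of genes. Blood endothelial genes scarcely moved, with medians between -0.01 and 0.01.

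**Figure D5:**
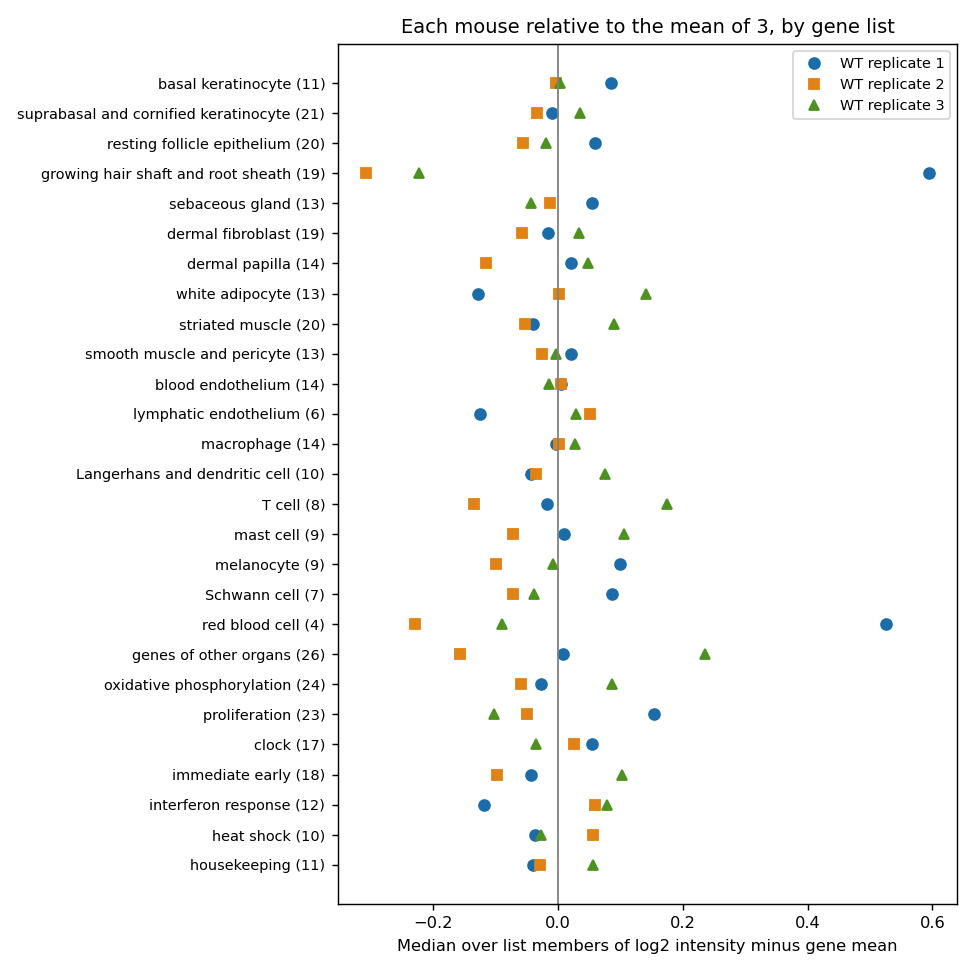
Median over list members of log2 intensity minus the gene's mean of 3 mice (horizontal axis), 1 symbol per wild-type mouse and list, number of genes in brackets. Growing-hair genes lie farthest from 0, at 0.60 in replicate 1, and adipocyte genes spread from -0.13 to 0.14.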

How the data were processed

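Total RNA of dorsal skin was taken with Trizol and 11 µg was labelled, 1 array per mouse. The deposited values are MAS5 intensities per the labels, on a linear scale. The MAS5 version was not given in the sources used here. Tested on the values, the 2% trimmed mean was 500.0 on each array. Median intensities over all probe sets were 116, 118 and 117. Precision is limited by having 3 arrays, and low MAS5 values carry large errors. Detection calls were not used here.

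After 64 controls were left out, probe sets with several symbols (932) or none here (9160) were dropped. Names came from the platform annotation, and identifiers of 34741 probe sets matched RefSeq, which renamed *Cyr61* to *Ccn1*. Before log2 was taken, 741 intensities below 1 were raised to 1. A gene stood for its probe set with the highest mean log2 intensity (9183 genes had 1 probe set). The filter kept genes at or above the 40th percentile of mean log2 intensity. Of 417 genes on 27 lists (20 of cell types, 7 of programmes), 381 were measured, and *Krt79*, *Postn*, *Sox10* and *Egr2* were on more than 1 list. The main globin probe sets carry several symbols and were not analysed here. The members and lists were chosen with earlier results of these data known. Only 1 group was used, so no test between groups was made and values are means ± SD, SDs, ranges and counts.

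Genes named were the 30 brightest, the brightest members of each list, those with the largest (20) and smallest (10) SD at or above the 60th percentile, members of the clock, red blood cell, other organ and housekeeping lists, and the members with the largest SD of lists whose spread is described. Other named genes were chosen after their values were seen. Python 3.11.15, numpy 2.4.6, pandas 2.3.3 and scipy 1.17.1 were used. The SD and range steps were checked on simulated arrays in 20 runs. Alternatives were quantile normalization, median centring, a mean over all probe sets of a gene, no probe sets ending in _x_at or _s_at, log2 of the intensity plus 32, other filters, and leaving out each mouse. Promoter windows ran from 250 bases before to 50 after each start.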

Additional observations from a re-analysis of the deposited data

How the results depend on the processing

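The number of genes among the brightest 100 of every array (91) and the number of lists with a median percentile of 90 or more (10) stayed within 1.5 times under every alternative run. The share of signal in the 100 brightest genes, 9.67%, was 13.5% when all probe sets of a gene were averaged and 10.1% without probe sets ending in _x_at or _s_at, and 9.49% to 9.76% when 1 mouse was left out. The median SD past the filter, 0.103, was 0.121 with the mean of probe sets, 0.165 with no filter, 0.088 with a filter at the 60th percentile, and 0.075 to 0.088 without 1 mouse. The 41 genes over 2-fold became 259 with the mean of probe sets, 17 with log2 of the intensity plus 32, 3626 with no filter, 6 with the 60th percentile, and 11 to 21 without 1 mouse, where 2 arrays give smaller ranges by construction. Agreement of the highest mouse between probe sets, 43.5%, was 42.4% after quantile normalization, 42.1% without _x_at or _s_at probe sets, 39.6% with no filter, 45.7% with the 60th percentile, and 56.2% to 59.5% with 2 mice, where fewer choices exist by construction. It has no value for the mean of probe sets. Elsewhere the cause was not tested. Median percentiles of lists moved by -31.9 to 12.9 with the mean of probe sets (23 of 27 lists past their spread) and by -14.3 to 7.87 without _x_at or _s_at probe sets (15 of 27). Averaging put lymphatic genes at 48.9, interferon genes at 61.0 and proliferation genes at 54.4, and Langerhans and dendritic cell genes were at 60.3 without those probe sets. Of 783 other values, 737 moved by less than the spread. The sign of the largest list deviation changed under 1 of 7 settings for suprabasal, blood endothelial, clock and housekeeping genes. No paired analysis was possible because only wild-type mice were used and no groups were compared.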

Other observations

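In several genes on no list, the same mouse was lowest at both of 2 probe sets. That was so in 41.7% of all 4408 genes with a second probe set past the filter. It was so in 49.1% of those with a range above 0.7 log2 units at the first. The genes below were found by looking through the values, so they are given as values only. *Ide*, the insulin-degrading enzyme gene, had intensities of 7813, 7461 and 4718 in replicates 1, 2 and 3 at its brightest probe set and 7933, 7485 and 4543 at the second, lowest in replicate 3 at both. *Errfi1*, a feedback inhibitor of the EGF receptor, had 5427, 8916 and 8664, and 3925, 6260 and 6318 at the second, lowest in replicate 1. *Depp1*, a target of FOXO factors, was lowest in replicate 1 and highest in replicate 3 at both, with 1787, 2460 and 3277, and 1962, 2511 and 2910. *Socs2*, a feedback inhibitor of growth hormone signalling, had 630, 1111 and 951, and 442, 695 and 620. The probe sets of a gene share the RNA and the array.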
